A study of Caenorhabditis elegans with 8 samples.

Results

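Reads from the DLK-1 axon regrowth pathway and from the ubiquitin ligase that restrains it were followed in whole worms of 8 *C. elegans* strains. The 8 genes were chosen by name and role as the kinase genes *dlk-1*, *mkk-4*, *pmk-3* and *mak-2*, their pathway partners *cebp-1* and *uev-3*, and the regulators *rpm-1* and *fsn-1*. They are 8 of 46778 genes listed in the count tables, and all 8 passed the filter on low counts in every comparison. The study asked how the RNA-binding protein MBL-1 (Muscleblind) shapes the touch receptor neurons (TRNs), a set of 6 mechanosensory cells that respond to gentle touch. Worms were grown from hatched L1 larvae on OP50 bacteria to the L4 stage before RNA was taken from whole animals.

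Each strain gave 2 biological replicates, 16 libraries in all, and every strain, the wild type included, carried a red fluorescent TRN reporter driven by the *mec-17* promoter. The first 4 strains had a normal *mec-3* gene: the wild type, the single mutants *mec-7(u278)* and *mbl-1(tm1563)*, and the double mutant *mec-7(u278) mbl-1(tm1563)*. The allele *tm1563* deletes an exon that all *mbl-1* isoforms share, and *u278* is a neomorphic allele of the β-tubulin gene *mec-7*, which is expressed mostly in TRNs. The other 4 strains carried alleles of *mec-3*, which encodes the LIM homeodomain factor that specifies TRN fate: *mec-3(unk206)*, which makes only the long isoform *mec-3a*, *mbl-1(tm1563); mec-3(unk206)*, the null *mec-3(u184)*, and *mec-3(syb8382)*, which lacks exon 2 and makes no *mec-3a*. The reporter was the insertion *uIs115* in 6 strains and *uIs134* in the strains *mec-3(syb8382)* and *mec-3(u184)*, so the insertion and those alleles cannot be told apart in a comparison with *mec-3(unk206)*.

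As background, DLK-1 is a mitogen-activated protein kinase kinase kinase that activates the kinase MKK-4, which activates the p38 kinase PMK-3. PMK-3 acts through the kinase MAK-2 on *cebp-1*, which encodes a bZIP transcription factor, and UEV-3, a ubiquitin-conjugating enzyme variant, acts together with PMK-3. The RING protein RPM-1 and the F-box protein FSN-1 form a ubiquitin ligase that lowers DLK-1 protein, and in TRNs the pathway is known for axon regrowth after cutting, axon termination and the response to unstable microtubules. Read counts report RNA only and cannot show kinase activity or protein stability.

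The libraries held between 22296336 and 23180583 reads assigned to genes. In the 4 strains with a normal *mec-3* gene 50.8% to 51.3% of stranded assignments lay on the second strand, and in the 4 *mec-3* strains 97.7% to 98.4%, so only the latter libraries kept strand. Replicates lay farther apart in the first kind: the chi-square statistic per degree of freedom between replicates was 101 to 244 in the 4 strains with a normal *mec-3* gene and 7.47 to 18.1 in the *mec-3* strains. Summed germline and sperm marker genes ran from 66.0 to 2005 counts scaled to the library total (CPM) in the first kind and from 1718 to 2505 CPM in the second, and summed pan-neuronal markers from 568 to 1580 CPM and from 601 to 760 CPM. None of the markers of neurons, muscle, hypodermis, intestine, germline and TRNs was at 0 in any library. The *mec-3* gene itself was at 2.87 and 2.18 CPM in the wild type, 0.135 and 0.132 CPM in *mec-3(u184)* and 0.529 and 0.494 CPM in *mec-3(syb8382)*, whereas *mbl-1* counts do not check the *tm1563* label because only 1 exon is missing.

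The 8 genes lie on 5 chromosomes of the WBcel235 assembly. The kinase genes are *dlk-1* (chromosome I, 12565800 to 12572801, minus strand), *mkk-4* (X, 10027856 to 10030130, plus strand), *pmk-3* (IV, 8139219 to 8143154, plus strand) and *mak-2* (IV, 885344 to 890200, plus strand). The other pathway genes are *uev-3* (I, 9310319 to 9312642, plus strand) and *cebp-1* (X, 1452695 to 1453868, minus strand), and the regulators are *rpm-1* (V, 8805399 to 8819955, minus strand) and *fsn-1* (III, 4937322 to 4939453, plus strand). Merged exons spanned 1076 bases in *cebp-1* and 11574 bases in *rpm-1*, the shortest and the longest of the set. Exons on the other strand overlapped 96 bases (3.04%) of *dlk-1*, 12 bases (1.07%) of *uev-3* and 97 bases (0.838%) of *rpm-1*, and reads from these stretches cannot be assigned in the libraries without strand. The *dlk-1* gene has 5 annotated transcripts, which gene counts do not separate.

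All levels by library are unstranded CPM, scaled by the trimmed mean of M-values over the 16 libraries, and pairs of values give replicates 1 and 2. For the MAPKKK gene *dlk-1* the wild type held 100.3 and 105 CPM, *mbl-1(tm1563)* 103 and 135, *mec-7(u278)* 30.1 and 82.6, and *mec-7(u278) mbl-1(tm1563)* 45.3 and 71.4. In the *mec-3* strains *dlk-1* was at 50.3 and 41.6 CPM in *mec-3(unk206)*, 46.8 and 46.6 in *mbl-1(tm1563); mec-3(unk206)*, 55.9 and 55.4 in *mec-3(u184)*, and 43.6 and 44.5 in *mec-3(syb8382)*. The 4 libraries of the wild type and *mbl-1(tm1563)* were thus the highest, and *mec-7(u278)* replicate 1 was the lowest of all 16. The MAPKK gene *mkk-4* varied least in absolute terms, from 6.66 CPM in *mec-3(syb8382)* replicate 1 to 17 CPM in *mbl-1(tm1563)* replicate 2, and the *mbl-1(tm1563)* pair alone (9.35 and 17 CPM) spanned most of that range.

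The p38 gene *pmk-3* was at 35.8 and 38.5 CPM in the wild type, 39.2 and 43.9 in *mbl-1(tm1563)*, 23.5 and 33.5 in *mec-7(u278)*, against 18 and 20.4 in *mec-7(u278) mbl-1(tm1563)*. Its levels in the *mec-3* strains were 17.5 and 18.2 CPM in *mec-3(unk206)*, 13.8 and 17.5 in *mbl-1(tm1563); mec-3(unk206)*, 18.6 and 19.2 in *mec-3(u184)*, and 16.3 and 15.2 in *mec-3(syb8382)*. The *mec-7(u278) mbl-1(tm1563)* pair therefore lay below both single mutants, near the level of the *mec-3* strains.

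The gene of the downstream kinase, *mak-2*, covered a wider range, with 97.0 and 103 CPM in the wild type, 79.5 and 103 in *mbl-1(tm1563)*, 50.8 and 84.3 in *mec-7(u278)*, against 22.2 and 53.4 in *mec-7(u278) mbl-1(tm1563)*. It was at 28 and 26.1 CPM in *mec-3(unk206)*, 22.9 and 27.8 in *mbl-1(tm1563); mec-3(unk206)*, 38.8 and 42.5 in *mec-3(u184)*, and 29.7 and 30.6 in *mec-3(syb8382)*. The replicates of *mec-7(u278) mbl-1(tm1563)* differed more from each other than any *mec-3* strain did from another. The transcription factor gene *cebp-1* split the same pair further, at 10.8 and 46.6 CPM, beside 45.0 and 62.9 CPM in the wild type, 50.6 and 67.5 in *mbl-1(tm1563)* and 19.3 and 43.9 in *mec-7(u278)*. In the *mec-3* strains *cebp-1* was at 23.1 and 19.1 CPM in *mec-3(unk206)*, 20.1 and 21.4 in *mbl-1(tm1563); mec-3(unk206)*, 30.1 and 34.0 in *mec-3(u184)*, and 23.9 and 24.4 in *mec-3(syb8382)*.

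The ubiquitin-conjugating variant gene *uev-3* ran the other way. It was at 8.23 and 6.91 CPM in the wild type, 7.96 and 5.55 in *mbl-1(tm1563)*, 10.1 and 6.34 in *mec-7(u278)*, against 20.4 and 12 in *mec-7(u278) mbl-1(tm1563)*. Levels of *uev-3* in the *mec-3* strains were 14.4 and 16.8 CPM in *mec-3(unk206)*, 20.7 and 21.8 in *mbl-1(tm1563); mec-3(unk206)*, 10.5 and 10.8 in *mec-3(u184)*, and 13.2 and 15.3 in *mec-3(syb8382)*. It was thus above every wild-type library in all 8 *mec-3* libraries and in both libraries of *mec-7(u278) mbl-1(tm1563)*.

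Among the regulators, *rpm-1* was at 17.9 and 22.0 CPM in the wild type, 16 and 20.1 in *mbl-1(tm1563)*, 6.89 and 23.2 in *mec-7(u278)*, against 9.77 and 15.9 in *mec-7(u278) mbl-1(tm1563)*. It ranged from 6.48 CPM in *mec-3(syb8382)* replicate 1 to 11.2 CPM in *mec-3(u184)* replicate 2 over the *mec-3* strains. The *mec-7(u278)* pair enclosed nearly the whole range of *rpm-1*, from near its lowest to its highest library. The F-box gene *fsn-1* did not follow its partner: it was at 18.6 and 24.4 CPM in the wild type, 25.1 and 12.4 in *mbl-1(tm1563)*, 33.8 and 23.6 in *mec-7(u278)*, against 54.6 and 47.7 in *mec-7(u278) mbl-1(tm1563)*. Its levels were 48.8 and 47.1 CPM in *mec-3(unk206)*, 86.0 and 83.2 in *mbl-1(tm1563); mec-3(unk206)*, 52.1 and 51.5 in *mec-3(u184)*, and 74.3 and 72.1 in *mec-3(syb8382)*. In unstranded CPM the *mec-3* strains thus kept an order for *fsn-1* with no overlap, *mbl-1(tm1563); mec-3(unk206)* above *mec-3(syb8382)* above *mec-3(u184)* above *mec-3(unk206)*. On the second strand, scaled within the *mec-3* strains, the last neighbours overlapped (53.60 and 53.73 against 53.61 and 50.64 CPM). They were not told apart in the test on that strand (log2 difference 0.07, SE 0.10).

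**Figure D1:**
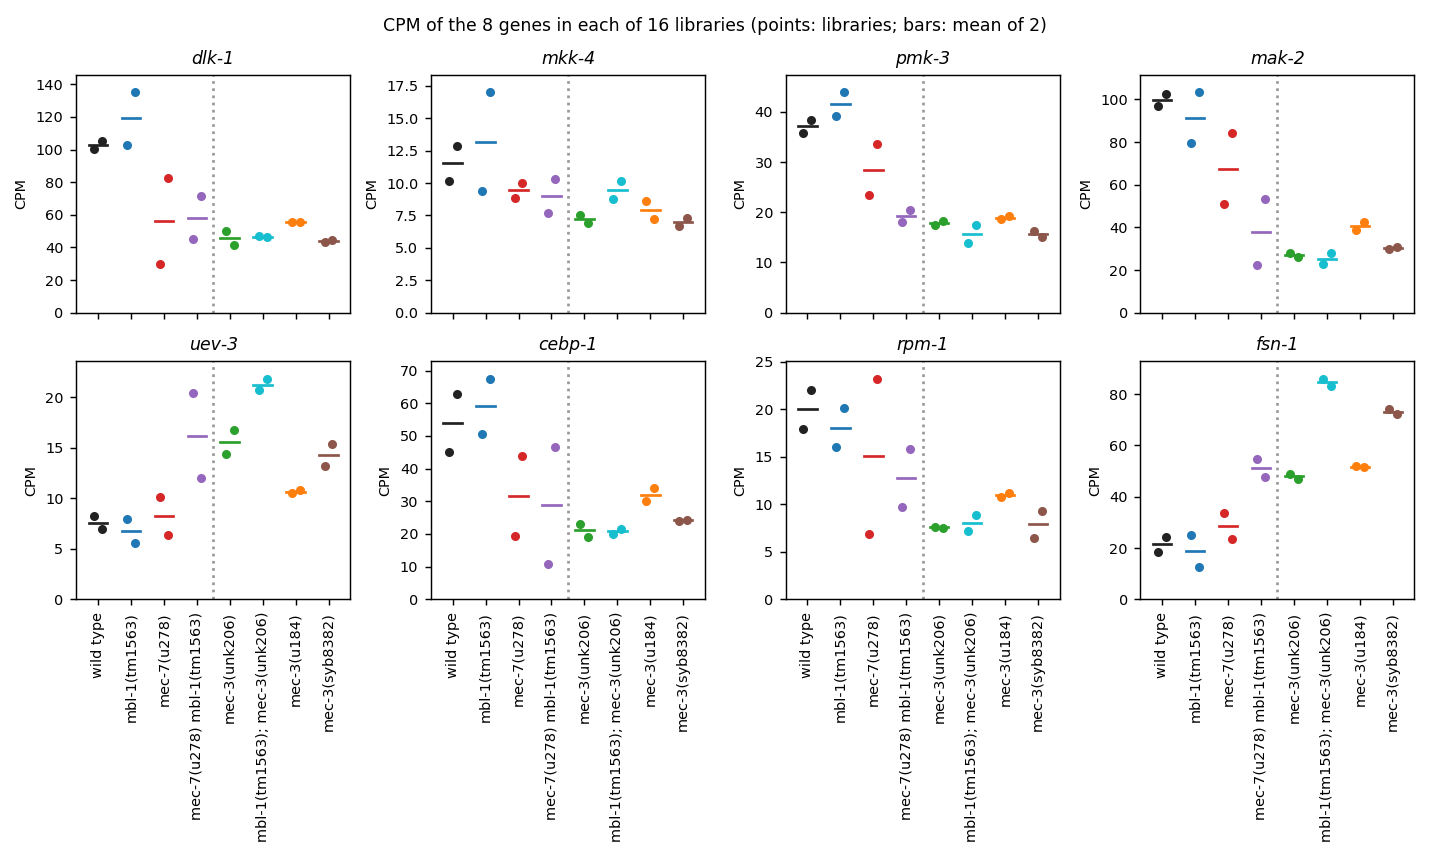
Each panel plots 1 gene as unstranded CPM (y axis) in the 16 libraries grouped by strain (x axis), with a point per library, a bar at the mean of the 2 replicates, and a dotted line between the strains with a normal *mec-3* gene and the *mec-3* strains. Replicates sit close together to the right of the line and apart to its left, and *fsn-1* and *uev-3* are the genes that are higher in the *mec-3* strains than in the wild type.

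Replicate spread differed between strains for these genes. The ratio of the higher to the lower replicate had a median over the 8 genes of 1.21 for wild-type worms, 1.32 for *mbl-1(tm1563)*, 1.63 for *mec-7(u278)* and 1.60 for the double mutant of both, and of 1.04 to 1.11 for the 4 *mec-3* strains. The widest pair was *cebp-1* in *mec-7(u278) mbl-1(tm1563)*, at 4.32-fold. A difference between strains with a normal *mec-3* gene had to be larger than these ratios to stand out.

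Levels of different genes were compared as CPM per kilobase of merged exon. In the wild type *mak-2* stood at 62.1 ± 2.45, *cebp-1* at 50.1 ± 11.8 and *dlk-1* at 32.5 ± 1.07 CPM per kilobase (SD, n = 2). Then came *pmk-3* at 19.9 ± 1.03 and *fsn-1* at 15.9 ± 3.04, and last *mkk-4* at 7.34 ± 1.23, *uev-3* at 6.77 ± 0.835 and *rpm-1* at 1.73 ± 0.251 CPM per kilobase (SD, n = 2). Wild-type replicates of *mkk-4* (6.47 and 8.21) and *uev-3* (7.36 and 6.18) overlapped, and those of *mak-2* (60.4 and 63.9) and *cebp-1* (41.8 and 58.5) came within 1 SD of *cebp-1*, so neither order is resolved. The gene of the large ligase RPM-1 was lowest per kilobase in all 16 libraries. In all 8 *mec-3* libraries *fsn-1* was first and *cebp-1* the next, so the F-box gene stood above all 4 genes that led it in the wild type.

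**Figure D2:**
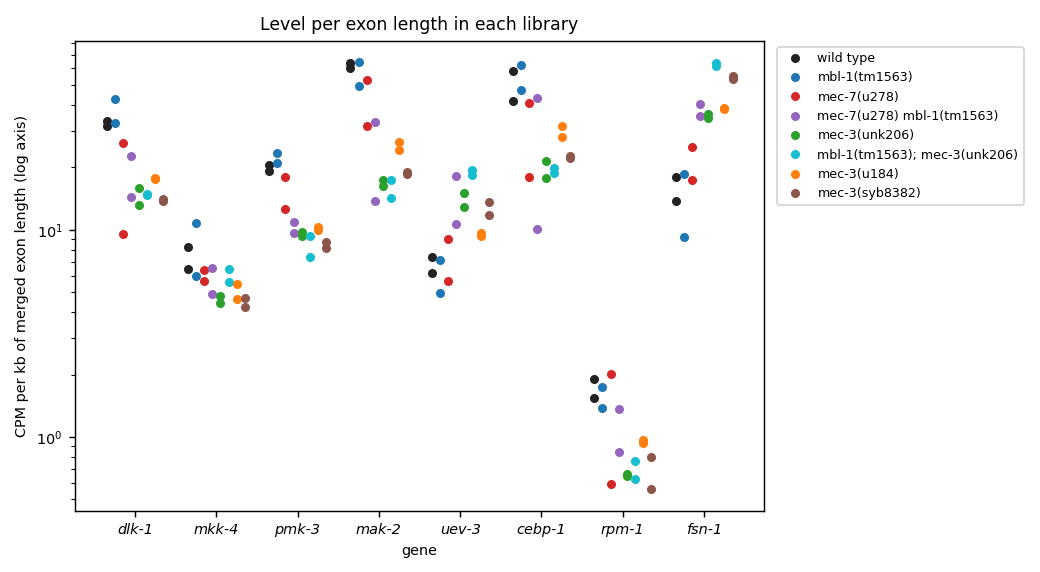
CPM per kilobase of merged exon (y axis, log scale) is shown in each library for each of the 8 genes (x axis), with strains in different colours. *rpm-1* lies lowest in all 16 libraries and *fsn-1* moves from the fifth place in the wild type to the first in the *mec-3* strains.

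Loss of *mbl-1* was compared in 3 backgrounds. In the otherwise wild-type background none of the 8 genes passed an adjusted p of 0.05 in edgeR's quasi-likelihood fit (Benjamini-Hochberg adjustment), where 0% of 14493 genes did. None had an unadjusted p under 0.05 either (1.11% of all genes did), and DESeq2 called 0 members and 20 of 14493 genes. The log2 fold changes lay between -0.19 for *fsn-1* and 0.24 for *dlk-1*. Their 95% intervals were as narrow as -0.33 to 0.70 for *pmk-3* and as wide as -0.93 to 1.39 for *mkk-4*. Changes inside a gene's interval were not excluded. Only for *pmk-3* did the 4 libraries separate, with both *mbl-1(tm1563)* libraries higher (log2 fold change 0.18, SE 0.19), and 19.9% of all genes separated in this comparison. With 2 libraries against 2 the smallest exact permutation p is 0.33, so single genes could be tested only with the fit across all genes.

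In the *mec-7(u278)* background loss of *mbl-1* again gave 0 calls among the 8 genes, and 0% of 15221 genes were called. Against the wild-type background the errors were wider for 7 of the 8 estimates, all but that of *fsn-1*, and 5 of the 8 lay farther from 0. DESeq2 called 0 members and 16 of 15221 genes. In the edgeR fit 0 members had an unadjusted p under 0.05, which 3.68% of all genes had. The *fsn-1* estimate was 0.84 (SE 0.33, 95% interval -0.01 to 1.69) and that of *uev-3* 0.98 (SE 0.51), while *mak-2* was at -0.83 (SE 0.52) and *pmk-3* at -0.56 (SE 0.37). All 4 had an adjusted p of 0.659 in edgeR's quasi-likelihood fit (Benjamini-Hochberg adjustment). The groups did not overlap for *fsn-1* and *uev-3*, higher without *mbl-1*, and for *pmk-3*, lower, as for 46.2% of all genes.

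In the *mec-3(unk206)* background *fsn-1* rose on loss of *mbl-1*, and it was the only member called, where 36.0% of 15097 genes were called, 14.2% higher and 21.9% lower. On the second strand, the strand used within the *mec-3* strains, *fsn-1* was at 53.6 and 50.6 CPM in *mec-3(unk206)* and 87.0 and 80.6 CPM in *mbl-1(tm1563); mec-3(unk206)*, with no overlap. The log2 fold change was 0.68 (SE 0.14, 95% interval 0.39 to 0.98, adjusted p = 0.00139 in edgeR's quasi-likelihood fit (Benjamini-Hochberg adjustment)). The call held in 11 of 12 alternatives and was lost in a single fit of all 16 libraries, and over the alternatives the adjusted p of that edgeR test or of DESeq2 ran from 3.85e-05 to 0.185. Summed markers of several tissues moved with it. Intestine markers went from 48158 and 37722 CPM to 22741 and 23529 CPM, TRN markers from 123 and 122 CPM to 63.4 and 66.0 CPM, and germline and sperm markers from 1921 and 1818 CPM to 2317 and 2480 CPM, and the part of the intestine and TRN markers in the result was not tested. The call was kept in a fit that held the germline and sperm level, chosen after seeing the data (log2 fold change 0.71, adjusted p = 0.00658 in edgeR). The groups also separated for *mkk-4* and *uev-3*, higher, and for *pmk-3* and *mak-2*, lower, as for 69.9% of all genes, without passing the test: *pmk-3* was at -0.34 (SE 0.17) and *uev-3* at 0.32 (SE 0.17), both with an adjusted p of 0.137 in edgeR's quasi-likelihood fit (Benjamini-Hochberg adjustment).

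A fit with 1 effect of *mbl-1* over all 3 backgrounds called 0 of the 8 genes and 0.0313% of 15994 genes. In this edgeR fit 0 members had an unadjusted p under 0.05, which 13.2% of genes had. DESeq2 called 0 members and 354 of 15994 genes, and 1 member had an unadjusted p under 0.05 in it. The *fsn-1* estimate was 0.49 (SE 0.23, adjusted p = 0.388 in edgeR's quasi-likelihood fit (Benjamini-Hochberg adjustment)) and that of *uev-3* 0.42 (SE 0.24), while *dlk-1* (0.10, SE 0.22), *cebp-1* (-0.01, SE 0.32) and *rpm-1* (-0.10, SE 0.27) lay near 0. The differences between backgrounds were tested as interactions. For *fsn-1* the *mbl-1* effect in *mec-3(unk206)* minus that in the wild-type background was 0.86 (SE 0.47, adjusted p = 0.613 in edgeR's quasi-likelihood fit (Benjamini-Hochberg adjustment)), so its rise was not shown to be particular to the *mec-3(unk206)* background. For *pmk-3* the corresponding differences were -0.73 (SE 0.37) in *mec-7(u278)* and -0.49 (SE 0.22) in *mec-3(unk206)*. The edgeR interaction fits called 0 members, where they called 0% of 15602 genes for *mec-7* and 0.0192% of 15661 for *mec-3*. In these edgeR fits 0 members had an unadjusted p under 0.05, which 1.67% and 9.14% of genes had. DESeq2 also called 0 members in both, where it called 4 of 15602 and 536 of 15661 genes. It gave an unadjusted p under 0.05 for 0 members in the first and 1 in the second.

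The neomorphic *mec-7(u278)* allele was compared in 2 backgrounds. Against the wild type, 0 of the 8 genes were called and 0.0204% of 14710 genes were, and DESeq2 called 0 members and 92 of 14710 genes. In the edgeR fit 0 members had an unadjusted p under 0.05, which 7.05% of all genes had. The estimates were below 0 for 6 of the 8 genes, from -0.85 (SE 0.50) for *dlk-1* to -0.27 (SE 0.36) for *mkk-4*, and above 0 for *uev-3* (0.12, SE 0.43) and *fsn-1* (0.43, SE 0.32). The median over members was -0.38 beside 0.00 over all genes. The groups separated for 6 members, as for 46.7% of all genes: the 4 kinase genes and *cebp-1* were lower and *fsn-1* higher.

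Between *mec-7(u278) mbl-1(tm1563)* and *mbl-1(tm1563)* the same directions were seen with larger estimates. The kinase genes *pmk-3* (-1.05, SE 0.24) and *dlk-1* (-0.97, SE 0.33) and the F-box gene *fsn-1* (1.51, SE 0.44) had an unadjusted p under 0.05, as 15.2% of 15086 genes did. None passed after adjustment, with a lowest adjusted p of 0.308 in edgeR's quasi-likelihood fit (Benjamini-Hochberg adjustment), where 0% of genes passed. DESeq2 called 0 members and 298 of 15086 genes. The groups separated for 6 members, lower for *dlk-1*, *pmk-3*, *mak-2* and *cebp-1* and higher for *uev-3* and *fsn-1*, as for 76.2% of all genes. Summed germline and sperm markers were at 746 and 66.0 CPM in *mbl-1(tm1563)* and at 2005 and 1388 CPM in *mec-7(u278) mbl-1(tm1563)*, and their part in these values was not tested. In whole worms, fewer cells of a type and less RNA per cell cannot be told apart.

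With 1 effect of *mec-7(u278)* over both backgrounds, 4 members had an unadjusted p under 0.05, as 33% of 15602 genes did: *fsn-1* (0.96, SE 0.32), *dlk-1* (-0.93, SE 0.33), *mak-2* (-0.90, SE 0.33) and *pmk-3* (-0.73, SE 0.22). Their adjusted p lay between 0.131 and 0.134 in edgeR's quasi-likelihood fit (Benjamini-Hochberg adjustment), which called 0 members and 0.0128% of genes. DESeq2 called 2 of the 8 members, *pmk-3* lower and *fsn-1* higher, and 3577 of 15602 genes. Across the 4 strains with a normal *mec-3* gene the joint test called 0 members and 0.0128% of genes, 2 members had an unadjusted p under 0.05 (13.9% of genes did), and DESeq2 called 1 member and 1531 of 15602 genes.

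**Figure D3:**
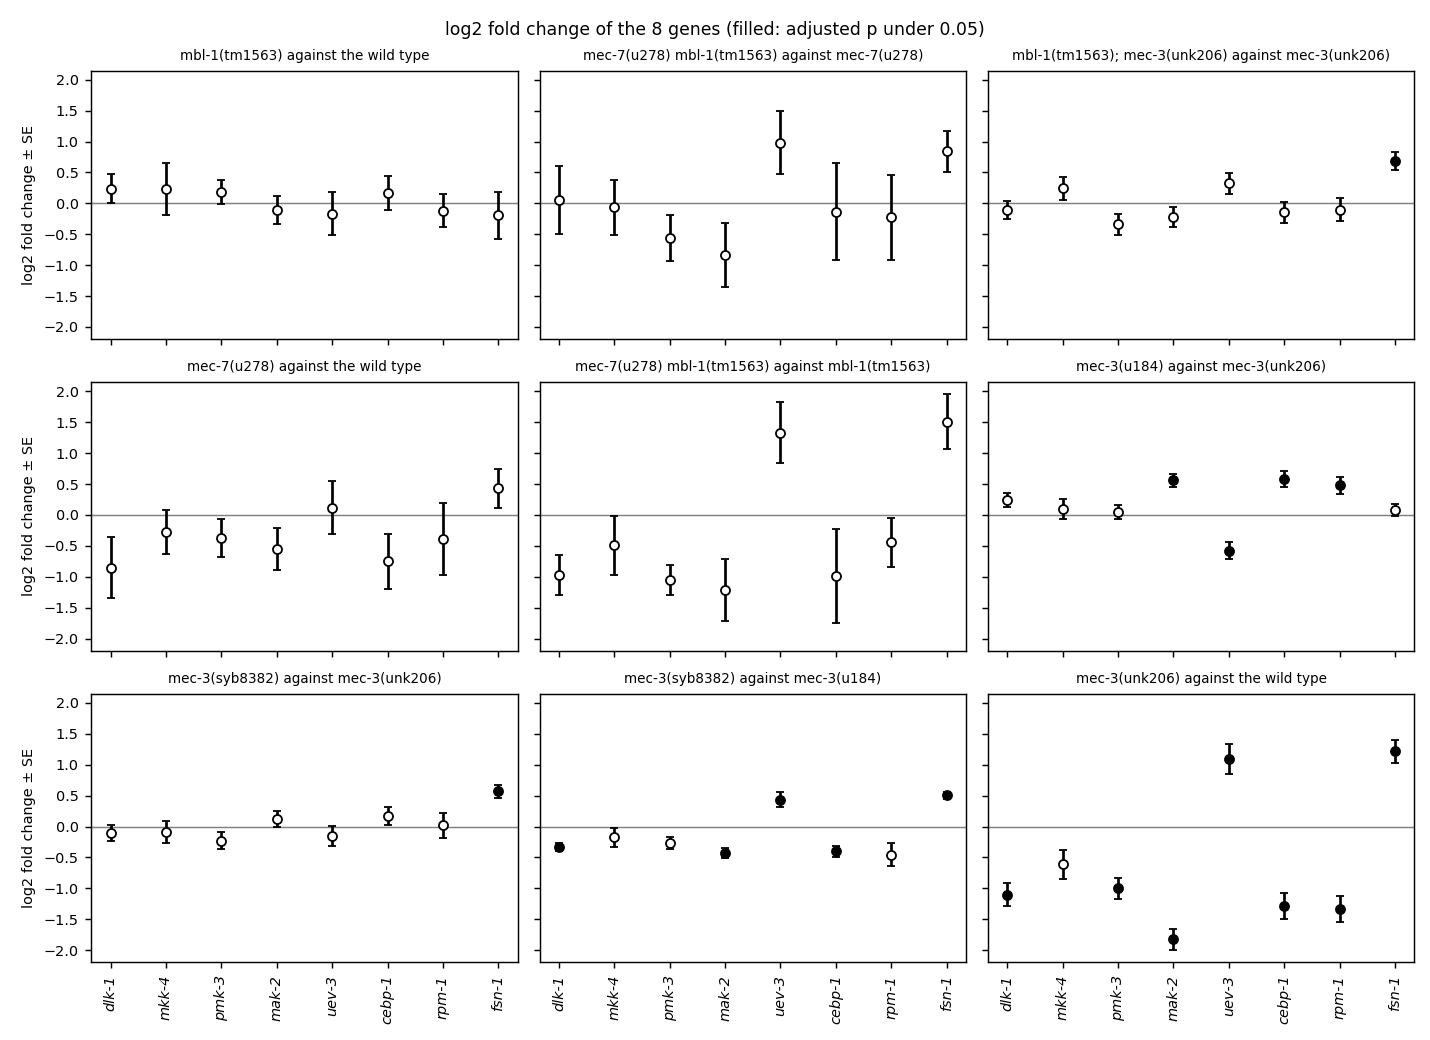
Log2 fold changes (y axis) of the 8 genes (x axis) in 9 comparisons of strains are drawn with error bars of 1 SE. Filled points passed the 0.05 threshold on adjusted p. No point is filled in the comparisons among strains with a normal *mec-3* gene, where the errors are widest, and 7 of 8 are filled between *mec-3(unk206)* and the wild type.

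Among the *mec-3* strains, 4 of the 8 genes differed in a joint test, as did 63.7% of 15431 genes. They were *fsn-1*, *uev-3*, *mak-2* and *cebp-1*, with adjusted p of 0.000176, 0.00101, 0.00138 and 0.00363 in edgeR's quasi-likelihood fit (Benjamini-Hochberg adjustment). The comparisons of *mec-3(u184)* and of *mec-3(syb8382)* with *mec-3(unk206)* share the *mec-3(unk206)* libraries, and each comparison is given with its own values. When all 16 libraries shared 1 fit, 0 members were called in the comparisons among these strains, and between 5 and 84 of 16074 genes.

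In the null *mec-3(u184)* the kinase gene *mak-2*, the transcription factor gene *cebp-1* and the ligase gene *rpm-1* were higher than in *mec-3(unk206)*, and *uev-3* was lower. On the second strand *mak-2* was at 40.1 and 44.6 CPM against 30.8 and 28 CPM (log2 fold change 0.56, SE 0.11). For *cebp-1* the levels were 31.1 and 35.3 CPM against 25.3 and 20.2 CPM (0.58, SE 0.13), and for *rpm-1* 12 and 12.4 CPM against 9.29 and 8.57 CPM (0.48, SE 0.14). The level of *uev-3* was 10.5 and 11.4 CPM against 15.6 and 17.8 CPM (-0.58, SE 0.14). None of the 4 pairs of groups overlapped, and their adjusted p were 0.00762 for *mak-2*, 0.0143 for *cebp-1*, 0.0312 for *rpm-1* and 0.0170 for *uev-3* in edgeR's quasi-likelihood fit (Benjamini-Hochberg adjustment), where 26.6% of 15040 genes were called (14.6% higher, 12% lower) and 67.3% had groups that did not overlap. Without *mec-3(u184)* replicate 2 the count was 0, where 2098 of 15444 genes were called, and without replicate 1 it was 2 (*mak-2* and *cebp-1*), where 2231 of 15387 were called. Over all alternatives the log2 fold changes stayed between 0.49 and 0.63 for *mak-2*, 0.44 and 0.72 for *cebp-1*, 0.44 and 0.54 for *rpm-1*, and -0.70 and -0.46 for *uev-3*. Summed body wall muscle markers also differed, at 12736 and 12048 CPM in *mec-3(u184)* against 9456 and 8410 CPM in *mec-3(unk206)*, as did pan-neuronal markers, at 760 and 757 CPM against 684 and 601 CPM. Their part in these differences was not tested.

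In *mec-3(syb8382)* only *fsn-1* of the 8 genes passed the test against *mec-3(unk206)*, with 77.9 and 76.8 CPM against 53.6 and 50.6 CPM on the second strand. The log2 fold change was 0.57 (SE 0.11, adjusted p = 0.00939 in edgeR's quasi-likelihood fit (Benjamini-Hochberg adjustment)), where 13.5% of 14848 genes were called (5.33% higher, 8.17% lower). Without *mec-3(syb8382)* replicate 1 or replicate 2 the *fsn-1* call was lost, and fewer of all genes were called. Over all alternatives the *fsn-1* log2 fold change lay between 0.48 and 0.61. Summed germline and sperm markers were at 2505 and 2501 CPM against 1921 and 1818 CPM, and in the single fit of all 16 libraries that held their level, chosen after seeing the data, the *fsn-1* estimate was 0.48 (adjusted p = 0.154 in edgeR), beside 0.61 (adjusted p = 0.570) in that fit without it. The log2 fold changes of the other 7 genes lay between -0.23 (*pmk-3*) and 0.17 (*cebp-1*).

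Between the isoform-specific *mec-3(syb8382)* and the null *mec-3(u184)*, which carry the same reporter insertion, 5 of the 8 genes differed, where 46.0% of 14897 genes did, 23.3% higher and 22.7% lower. The regulator gene *fsn-1* (77.9 and 76.8 against 53.6 and 53.7 CPM, log2 fold change 0.50, SE 0.06) and *uev-3* (13.9 and 16.2 against 10.5 and 11.4 CPM, 0.43, SE 0.12) were higher. The genes *dlk-1* (46.2 and 47.4 against 58.1 and 58.0 CPM, -0.34, SE 0.06), *mak-2* (31.3 and 32.7 against 40.1 and 44.6 CPM, -0.43, SE 0.08) and *cebp-1* (25.1 and 25.9 against 31.1 and 35.3 CPM, -0.40, SE 0.09) were lower. All 5 pairs of groups lay apart, as for 75.6% of genes, and adjusted p ran from 0.00157 for *fsn-1* to 0.0297 for *uev-3* in edgeR's quasi-likelihood fit (Benjamini-Hochberg adjustment). Without *mec-3(u184)* replicate 2 only the calls of *dlk-1* and *fsn-1* remained, and fewer of all genes were called. Over all alternatives the log2 fold changes lay between 0.33 and 0.54 for *fsn-1* and 0.32 and 0.54 for *uev-3*. They lay between -0.35 and -0.21 for *dlk-1*, -0.50 and -0.33 for *mak-2*, and -0.49 and -0.28 for *cebp-1*. Summed germline and sperm markers were at 1725 and 1718 CPM in *mec-3(u184)* and 2505 and 2501 CPM in *mec-3(syb8382)*, and their part in these differences was not tested.

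Between *mec-3(unk206)* and the wild type 7 of 8 genes differed, where 62.2% of 15124 genes did, 31.9% higher and 30.3% lower. The genes *mak-2* (log2 fold change -1.83, SE 0.17), *rpm-1* (-1.34, SE 0.21), *cebp-1* (-1.29, SE 0.21), *dlk-1* (-1.11, SE 0.19) and *pmk-3* (-0.999, SE 0.17) were lower in *mec-3(unk206)*, and *fsn-1* (1.22, SE 0.19) and *uev-3* (1.09, SE 0.24) were higher. Their adjusted p ran from 0.00144 to 0.00996, and that of *mkk-4* (-0.61, SE 0.23) was 0.0596 in edgeR's quasi-likelihood fit (Benjamini-Hochberg adjustment). The median over members was -1.05 beside -0.04 over all genes. Summed pan-neuronal markers were at 684 and 601 CPM in *mec-3(unk206)* and at 1331 and 1331 CPM in the wild type, and germline and sperm markers at 1921 and 1818 CPM and at 253 and 506 CPM. In the single fit of all 16 libraries 6 members were called, and 2 when it also held the germline and sperm level, where 7946 and 1870 of 16074 genes were called. The part of the pan-neuronal markers was not tested. The strand-keeping libraries and the *mec-3* allele change together here, so the kind of library and the genotype cannot be told apart. Without either *mec-3(unk206)* library fewer members and fewer of all genes were called. Over all alternatives the log2 fold changes lay between -1.88 and -1.45 for *mak-2*, -1.43 and -0.88 for *rpm-1*, and -1.47 and -0.83 for *cebp-1*. They lay between -1.23 and -0.62 for *dlk-1*, -1.06 and -0.87 for *pmk-3*, 0.43 and 1.44 for *fsn-1*, and 0.58 and 1.28 for *uev-3*.

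The levels of these genes were set against the summed pan-neuronal markers, within each kind of library because the kinds form separate clusters. Across the 8 libraries without strand log2 *mak-2* had a Pearson's r of 0.97 and a Spearman's rho of 0.98 with the pan-neuronal sum, and across the 8 libraries with strand 0.94 and 0.83. The corresponding r were 0.96 and 0.60 for *pmk-3*, 0.82 and 0.87 for *dlk-1* and 0.88 and 0.95 for *cebp-1*. For *rpm-1* they were 0.74 and 0.80, and for *mkk-4* 0.80 and 0.03. Body wall muscle markers gave similar values, with r of 0.92 and 0.87 for *mak-2*, 0.97 and 0.86 for *cebp-1*, 0.83 and 0.35 for *pmk-3* and 0.82 and 0.51 for *dlk-1*, so these relations were not to neuronal markers alone. With the pan-neuronal sum, *uev-3* (-0.95 and -0.80) and *fsn-1* (-0.95 and -0.38) ran the other way. With the germline and sperm sum *fsn-1* had an r of 0.96 and a rho of 1 in the first kind and 0.90 and 0.60 in the second. These are descriptions over 8 libraries of 4 strains each, in which both measures come from the same library and share its scaling, so the points are not independent.

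The levels were also expressed as a share of the pan-neuronal sum, within each kind of library. In the libraries without strand *pmk-3* covered a 1.36-fold range of that share beside 2.44-fold in CPM, *mak-2* 1.97-fold beside 4.66-fold, and *fsn-1* 12.2-fold beside 4.39-fold. In the libraries with strand the ranges were 1.34-fold beside 1.39-fold for *pmk-3*, 1.49-fold beside 1.85-fold for *mak-2* and 2.08-fold beside 1.83-fold for *fsn-1*. The share thus narrowed *pmk-3* and *mak-2* and widened *fsn-1* in both kinds, by little for *pmk-3* in the libraries with strand.

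**Figure D4:**
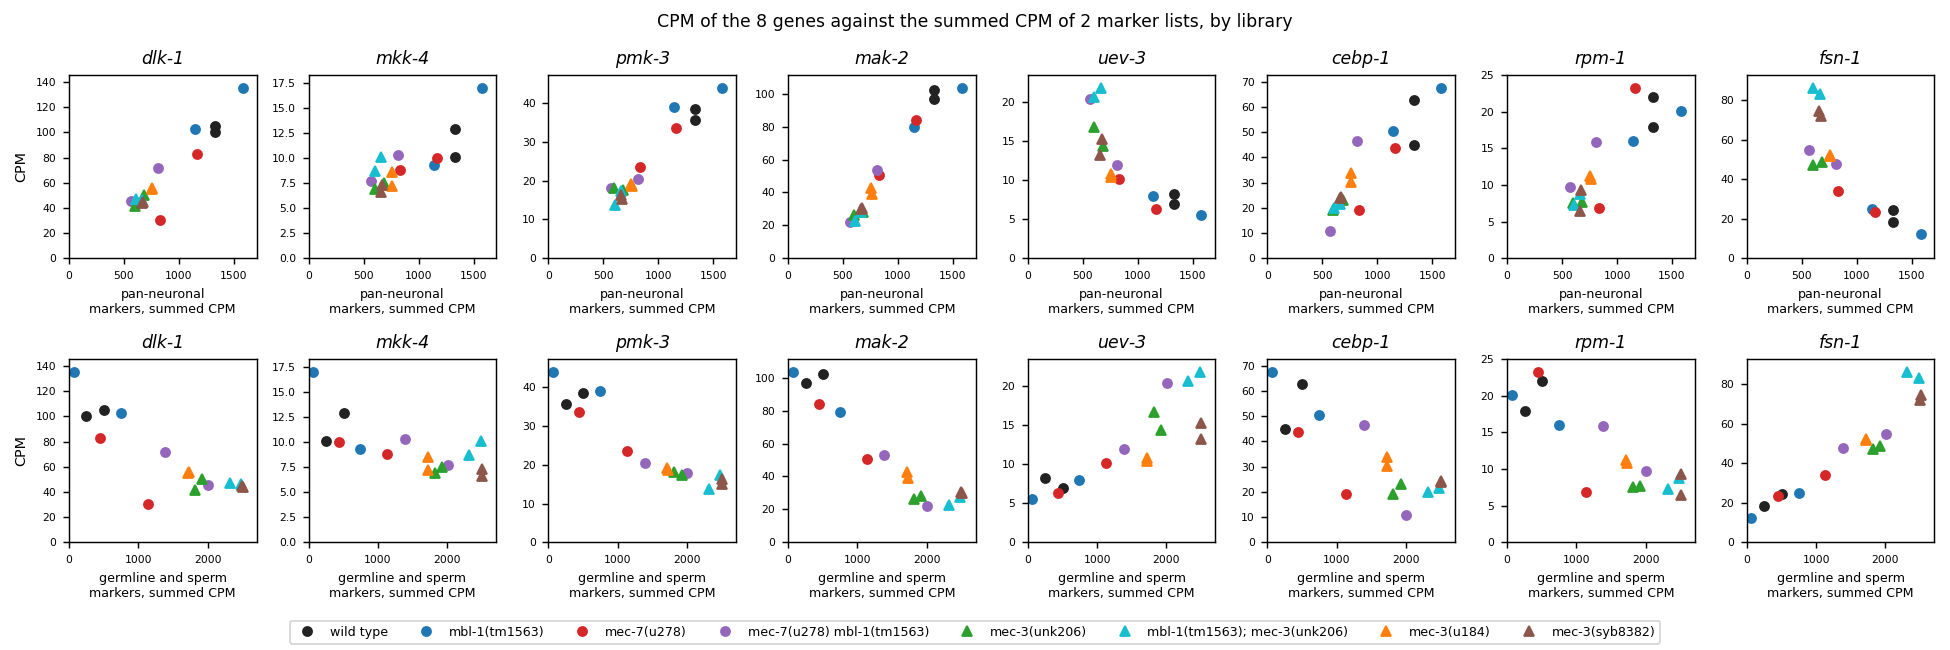
The CPM of the 8 genes (y axes) is plotted against the summed CPM of pan-neuronal markers and of germline and sperm markers (x axes), with circles for libraries of strains with a normal *mec-3* gene and triangles for *mec-3* strains. *mak-2* rises with the pan-neuronal sum (r of 0.97 among the circles) and *fsn-1* with the germline and sperm sum (r of 0.96).

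Some pairs of members split accordingly, but *mkk-4* did so only in the libraries without strand. Over those and then over the libraries with strand, its r was 0.72 and -0.16 with *mak-2*. It was -0.75 and 0.50 with *uev-3*, and -0.77 and 0.46 with *fsn-1*. The genes *mak-2* and *cebp-1* had an r of 0.92 over the libraries without strand and 0.97 over those with strand, *fsn-1* and *uev-3* of 0.89 and 0.63, and *mak-2* and *uev-3* of -0.95 and -0.86. Over all 16 libraries, and among genes with a mean of at least 10 CPM, the genes whose log2 CPM pattern was most like that of *mak-2* were the kinesin light chain gene *klc-2* and *hlb-1* (both r = 0.99). For *pmk-3* they were the salt-inducible kinase family gene *kin-29* and *Y34B4A.4* (both 0.98), for *dlk-1* *C53D5.5* and the phospholipase C gene *plc-1* (both 0.97), and for *mkk-4* the protein kinase C gene *pkc-1* (0.90) and *Y47A7.2* (0.89). The closest genes were *xbp-1*, which encodes a factor of the unfolded protein response, and the sodium/calcium exchanger gene *ncx-2* for *cebp-1* (both 0.96), and *F56D2.2* (0.99) and *tag-342* (0.98) for *uev-3*. They were *wdfy-3* and the chromatin remodeler gene *chd-7* for *rpm-1* (both 0.98), and *Y4C6B.1* and *ZK829.9* for *fsn-1* (both 0.99). These r are taken over libraries of both kinds and share the gap between them.

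Beyond the 8 genes, lists of 45 related genes were followed: direct partners of the DLK-1 pathway and of RPM-1, other p38, JNK and ERK pathway genes, and regulators of microtubules and axon regrowth. Of these, 44 were matched in the tables and 43 were tested. No list gene was called between *mbl-1(tm1563)* and the wild type, between *mec-7(u278) mbl-1(tm1563)* and *mec-7(u278)* or between *mec-7(u278)* and the wild type. Of all genes, 0% of 14493, 0% of 15221 and 0.0204% of 14710 were called there, in that order. On loss of *mbl-1* in *mec-3(unk206)* 13 of the 43 were called, 2 higher and 11 lower, beside the 36.0% of all genes.

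Of the 4 DLK-1 pathway partners, 2 fell in that comparison, *mak-1*, which encodes a kinase related to MAK-2 (-0.80, SE 0.15), and *mnk-1*, which encodes a MAP kinase interacting kinase (-0.44, SE 0.16). Of the 7 tested RPM-1 partners, *anc-1*, the nesprin gene (75.3 and 113 against 177 and 156 CPM, log2 fold change -0.82, SE 0.18), and *glo-4*, which encodes a guanine nucleotide exchange factor (-0.68, SE 0.14), fell. By the naming rule the largest changes were those of the JNK-like kinase gene *kgb-2* (1.76 and 1.67 against 5.19 and 2.98 CPM, -1.24, SE 0.28), the SARM-family adaptor gene *tir-1* (28.9 and 31.3 against 58.6 and 52.1 CPM, -0.88, SE 0.15) and *anc-1*. The called RPM-1 partners were thus 2 of 7, both lower, beside 36.0% of all genes called. Of those not called, *rae-1* (0.21, SE 0.14), *cul-1* (0.15, SE 0.14) and *rbx-1* (0.30, SE 0.19) had estimates above 0, as *fsn-1* had. The estimates of *ppm-2* (-0.27, SE 0.14) and *skr-1* (-0.30, SE 0.14) were below 0.

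The *mec-3(u184)* and *mec-3(unk206)* strains differed in 4 of the 43 list genes, 3 higher and 1 lower in *mec-3(u184)*, beside 26.6% of all genes. The higher ones were the MAPKK gene *mek-1* (51.4 and 51.8 against 40.0 and 29.5 CPM, 0.61, SE 0.14), the collapsin response mediator gene *unc-33* (0.51, SE 0.12) and the microtubule minus-end gene *ptrn-1* (0.50, SE 0.12). Between *mec-3(syb8382)* and *mec-3(unk206)* 5 differed, 2 higher and 3 lower, beside 13.5% of all genes, and those named by the rule were *kgb-2* (1.73 and 1.97 against 5.19 and 2.98 CPM, -1.14, SE 0.30), *tir-1* (-0.53, SE 0.12) and *ksr-2* (0.51, SE 0.13). Between *mec-3(syb8382)* and *mec-3(u184)* 22 differed, 12 higher and 10 lower, beside 46.0% of all genes, among them *tir-1* (39.1 and 37.5 against 51.3 and 65.2 CPM, -0.63, SE 0.12), the scaffold gene *ksr-2* (47.1 and 53.9 against 33.4 and 32.4 CPM, 0.60, SE 0.09) and the JNK-like kinase gene *kgb-1* (-0.55, SE 0.06). Between *mec-3(unk206)* and the wild type 21 differed, 5 higher and 16 lower, beside 62.2% of all genes, led by *ptrn-1* (22.5 and 19.2 against 87.2 and 95.5 CPM, -2.08, SE 0.18), the JNK pathway kinase gene *jkk-1* (-1.94, SE 0.37) and the receptor tyrosine kinase gene *svh-2* (-1.53, SE 0.19).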

How the data were processed

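RNA from whole L4 worms was extracted with TRIzol, made into libraries that per the labels were strand-specific, and sequenced as paired ends on a BGI DNBSEQ instrument. Per the submitters' processing notes the authors aligned reads with STAR 2.7.10 to WBcel235 and tested with DESeq2. The deposited files hold raw counts per gene in STAR's unstranded, first-strand and second-strand columns, with no normalization. The unstranded column was used wherever a library without strand entered, and the second-strand column within the *mec-3* strains. Of all reads, 1.09% to 2.86% were unmapped, 2.47% to 4.24% mapped to several places, 0.230% to 0.505% hit no feature and 1.53% to 1.91% were ambiguous, and these stayed out of library sizes. Symbols were matched for 43818 of 46778 gene IDs.

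Counts were filtered with filterByExpr, scaled by TMM and tested with glmQLFit and glmQLFTest of edgeR 4.0.16 (limma 3.58.1, R 4.3.3) on the libraries compared, with p-values adjusted over all genes tested by the Benjamini-Hochberg method and a threshold of 0.05. Additive and interaction fits used the strains they concern. Intervals are at 95%. The script was tested on simulated counts. Similarity between genes was Pearson's r of log2(CPM + 0.5). DESeq2 1.42.0, other size factors, other filters, the other count column, a single fit of 16 libraries, a replicate block and leaving out each library were alternatives. Named are the 8 members in every comparison, the label checks *mbl-1*, *mec-3* and *mec-7*, genes overlapping a member, the 2 genes most like each member, and per comparison up to 3 list genes with an adjusted p under 0.05, groups that do not overlap and the largest log2 fold change. The partners *mak-1*, *mnk-1*, *glo-4*, *rae-1*, *cul-1*, *rbx-1*, *ppm-2* and *skr-1* were named after their values were seen. The members and lists were chosen with earlier results of these data known. Each strain had 2 biological replicates. Over all genes the replicates of each strain differed by more than counting error (chi-square per degree of freedom 7.47 to 244). For single members the 2 were not compared.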

Additional observations from a re-analysis of the deposited data

Results flagged for a closer look

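The p38 gene *pmk-3* drew attention because loss of *mbl-1* went with opposite directions in different backgrounds while the libraries of each comparison did not overlap. Its log2 fold change was 0.18 (SE 0.19) against the wild type, -0.56 (SE 0.37) in *mec-7(u278)* and -0.34 (SE 0.17) in *mec-3(unk206)*. Groups without overlap were common, with 19.9%, 46.2% and 69.9% of all genes in these comparisons. The differences themselves were tested as interactions and did not pass, with adjusted p of 0.908 for *mec-7* and 0.561 for *mec-3(unk206)* in edgeR's quasi-likelihood fit (Benjamini-Hochberg adjustment).

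First-strand counts, which the comparisons on the second strand left out, exceeded the limit of 3 counts in the 8 libraries that kept strand for 5 members. The highest such count in a library was 14 for *dlk-1*, 10 for *mak-2*, 12 for *uev-3*, 13 for *cebp-1* and 20 for *fsn-1*, while *pmk-3* reached 3, *mkk-4* 1 and *rpm-1* 0. They made up at most 1.11% of the stranded reads of *dlk-1*, 1.48% of *mak-2*, 3.45% of *uev-3*, 2.63% of *cebp-1* and 1.30% of *fsn-1*.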

How the results depend on the processing

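Of the 18 calls on members, 18 remained with other size factors, the other count column, a minimum of 10 counts per library or the replicate block, 17 without a filter, 16 with DESeq2, 6 in a single fit of all 16 libraries and 3 when that fit also held the germline and sperm marker level, an alternative chosen after seeing the data. The single fit shares 1 estimate of spread with the widely varying strains. Replicate numbers come from file names, so they do not pair samples: deviations of same-numbered samples correlated between -0.61 and 0.52 over the comparisons, and with the replicate block the numbers of members called stayed at 1 for loss of *mbl-1* in *mec-3(unk206)* and 7 for *mec-3(unk206)* against the wild type.

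The number of members called in the single fit was 0 for loss of *mbl-1* in *mec-3(unk206)* (1 in the separate fit), 4 for *mec-7(u278)* among *mbl-1* mutants (0), 5 for *mec-7(u278)* over 2 backgrounds (0), 3 among strains with a normal *mec-3* gene (0) and 0 among the *mec-3* strains (4). Calls over all 16074 genes moved too, to 29, 5942, 6939, 3390 and 84 in that order. It was 0 with or without the marker level for *mec-3(u184)* (4) and *mec-3(syb8382)* (1) against *mec-3(unk206)* and for *mec-3(syb8382)* against *mec-3(u184)* (5). Over all 16074 genes 17, 5 and 8 were called without the level in that order, and 67, 20 and 39 with it. With the marker level it was 2 for *mec-3(unk206)* against the wild type (7), 1 for *mbl-1* over 3 backgrounds (0) and 1 among the *mec-3* strains (4). Calls over all 16074 genes were then 1870, 2226 and 2112 in that order. The separate fits called 9409 of 15124, 5 of 15994 and 9822 of 15431 genes. DESeq2 gave 2 for *mec-7(u278)* over 2 backgrounds and 1 among strains with a normal *mec-3* gene, where it called 3577 and 1531 of 15602 genes.

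Leaving out each library in turn, with the lone sample assumed to vary like the others, changed the number of members called in some fits. These were fits of *mec-3(u184)* and *mec-3(syb8382)* against *mec-3(unk206)*, *mec-3(syb8382)* against *mec-3(u184)*, *mec-3(unk206)* against the wild type and the interaction of *mbl-1* with *mec-3(unk206)*. The number of all genes called changed in them too. Uncalled log2 fold changes that crossed 0 were, for *mbl-1(tm1563)* alone, *dlk-1* -0.053 to 0.54, *mkk-4* -0.35 to 0.71, *mak-2* -0.38 to 0.20, *uev-3* -0.31 to 0.020, *cebp-1* -0.14 to 0.48, *rpm-1* -0.37 to 0.16 and *fsn-1* -0.63 to 0.18. For loss of *mbl-1* in *mec-7(u278)* they were *dlk-1* -0.45 to 0.97, *mkk-4* -0.30 to 0.13, *cebp-1* -1.55 to 0.58 and *rpm-1* -0.81 to 0.91, and in *mec-3(unk206)* *dlk-1* -0.22 to 0.033, *cebp-1* -0.26 to 0.0033 and *rpm-1* -0.22 to 0.013. Over 3 backgrounds they were *dlk-1* -0.053 to 0.31, *cebp-1* -0.30 to 0.18 and *rpm-1* -0.26 to 0.18. For *mec-7(u278)* against the wild type they were *uev-3* -0.24 to 0.36 and *rpm-1* -1.58 to 0.24, for *mec-3(u184)* against *mec-3(unk206)* *mkk-4* -0.021 to 0.21, and for *mec-3(syb8382)* against it *dlk-1* -0.25 to 0.065 and *rpm-1* -0.29 to 0.25.

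With the marker level in the single fit other uncalled values reversed. They were *mkk-4* -0.020 and *cebp-1* -0.051 for *mbl-1(tm1563)* alone, and *mkk-4* 0.17, *cebp-1* 0.16 and *rpm-1* 0.11 for loss of *mbl-1* in *mec-7(u278)*. In *mec-3(unk206)* they were *dlk-1* 0.11, *cebp-1* 0.057 and *rpm-1* 0.17 (without the marker level *dlk-1* 0.023 and *rpm-1* 0.085), and over 3 backgrounds *cebp-1* 0.055 (with at least 10 counts in every library 0.0054). They were *uev-3* -0.10 for *mec-7(u278)* against the wild type (with the other count column -0.33), *mkk-4* 0.091 and *rpm-1* 0.13 for *mec-7(u278)* among *mbl-1* mutants, and *dlk-1* 0.036 and *mkk-4* 0.038 for *mec-3(syb8382)* against *mec-3(unk206)*. The cause of these changes was not tested.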

Other observations

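The TRN β-tubulin gene *mec-7*, whose product is the microtubule subunit altered by *u278*, was read as a check of the labels and belongs to no comparison of the pathway genes. It was at 214 and 150 CPM in the wild type, 31.9 and 61.3 CPM in *mbl-1(tm1563)*, 47.0 and 98.5 CPM in the *mec-7(u278)* single mutant and 4.34 and 11.9 CPM in *mec-7(u278) mbl-1(tm1563)*. In the *mec-3* strains it was at 33.7 and 30.7 CPM in *mec-3(unk206)*, 8.41 and 7.97 CPM in *mbl-1(tm1563); mec-3(unk206)*, 6.91 and 7.55 CPM in *mec-3(u184)* and 10.1 and 8.84 CPM in *mec-3(syb8382)*. Both libraries of each strain without *mbl-1* thus lay below both libraries of the matching strain with it.

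Genes whose exons overlap a member on the other strand were *mec-19* beside *dlk-1*, at 0.657 to 1.74 CPM over the 16 libraries, *F26H9.5* beside *uev-3*, at 41.8 to 112 CPM, and *C01B7.11* beside *rpm-1*, listed at 0 in every library.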
